A study of Homo sapiens with 16 samples.

Results

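The comparison described here set replicates 3 and 4 against replicates 1 and 2 of an RNA-seq study of Molm13, a human acute myeloid leukaemia cell line of monocytic character that carries an MLL fusion and an internal tandem duplication of FLT3. Libraries were assigned by the replicate number in their labels, which placed 8 in each set and took in 16 of the 16 libraries. Cells were given 0.005% DMSO, 1 µM of an inhibitor of EZH2 (EZH2i), 1 µM of an inhibitor of PRMT5 (PRMT5i) or both inhibitors together (combination), each for 4 days in RPMI1640 medium with fetal bovine serum, and each treatment was held by 4 libraries, 2 in each replicate pair. EZH2 is the methyltransferase of the polycomb repressive complex PRC2 and PRMT5 deposits symmetric dimethylation on arginines. The sources name neither compound, nor what a replicate number stands for, so p-values measure the spread between these libraries, which may be technical. In the following, drift is the log2 difference of replicates 3 and 4 minus replicates 1 and 2 at a fixed treatment, so a negative drift is a lower level in replicates 3 and 4, and levels are counts-per-million (CPM) after scaling by the trimmed mean of M values.

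Drift was read through 3 kinds of programme. Myeloid precursors can take an eosinophil, basophil or mast cell path, in which GATA2 acts with other factors on genes for granule proteins such as eosinophil peroxidase (EPX), major basic protein (PRG2) and the tryptases, or a monocyte and macrophage path, marked by Fc receptors, scavenger receptors and the pore-forming protein of phagosomes, MPEG1. The amino acid and integrated stress response is a separate programme: phosphorylation of the translation factor eIF2α favours translation of ATF4, and ATF4 with a C/EBP partner binds composite elements at genes for amino acid synthesis, amino acid transport and glutathione turnover. Leukaemia lines are mixtures of cells at different points along such paths. In bulk RNA, fewer cells of a kind and less RNA of that kind per cell cannot be told apart.

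The 16 libraries held 31.1 to 52.9 M expected counts, and 17439 of 60669 genes passed the filter on low counts. Some markers of monocytic and granulocytic cells were abundant in all libraries, with LYZ at 398 to 1120 CPM, PRTN3 at 971 to 2480 CPM and IRF8 at 199 to 406 CPM. Monocyte and macrophage markers differed in level. CD14 and CD163 did not exceed 0.494 and 0.11 CPM, whereas CD68 read 53.6 to 85.7 CPM, FCGR1A 46.1 to 91.3 CPM and ITGAM 23.5 to 80 CPM. Some libraries lay apart from the rest of their treatment. DMSO replicate 1 had 1.7% of its counts on mitochondrial genes against 0.213 to 0.792% elsewhere and a scaling factor of 0.859. Its share on the protein-coding mitochondrial genes alone was the lowest, at 0.0884% against 0.206 to 0.48% elsewhere. The slope of log2 level on GC content, per 10 percentage points, was -0.223 in DMSO replicate 1, 0.257 in DMSO replicate 2 and 0.29 in EZH2i replicate 1, and lay between -0.133 and 0.137 in the other libraries. Within treatments, the first principal component took 25.6% of the variance, with DMSO replicate 1 (43.95) and EZH2i replicate 4 (34.31) at one end and DMSO replicate 2 (-60.6) and EZH2i replicate 1 (-36.96) at the other. Each library was left out in turn. On the second component, with 12.3% of the variance, replicates 3 and 4 lay above replicates 1 and 2 within each of the 4 treatments. In the combination, the scores on that component were -5.95 and -9.08 in replicates 1 and 2 and 5.21 and 9.82 in replicates 3 and 4.

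Over all treatments, 251 genes (1.44% of those tested) passed the test for drift at an adjusted p under 0.05, 101 higher (0.579%) and 150 lower (0.86%) in replicates 3 and 4. Among protein-coding genes that reached 5 CPM, the 3 largest falls were those of the eosinophil and mast cell granule genes EPX, TPSB2 and PRG2. The largest rises were those of the ubiquitin ligase gene DTX4, the creatine transporter gene SLC6A8, MPEG1 and the inhibitory Fc receptor gene FCGR2B. Most changes were small. The median size over the 251 genes was 0.52 on the log2 scale, and 37 genes (0.212%) drifted by more than 1, 13 of them higher (0.0745%) and 24 lower (0.138%). At an unadjusted p under 0.05 there were 1941 genes (11.1%). Without DMSO replicate 1 the count was 467, of which 245 were among the 251, and without DMSO replicate 2 it was 371, with 239 shared. Without EZH2i replicate 1 the count was 208. The count was 148 without PRMT5i replicate 2, 158 and 153 without PRMT5i replicates 1 and 4, 152 without DMSO replicate 4 and 164 without combination replicate 1.

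EPX had the largest fall of a protein-coding gene whose mean reached 5 CPM in either replicate pair. In DMSO it read 4.83 and 10.2 CPM in replicates 1 and 2 against 1.11 and 1.01 CPM in the others, and in EZH2i 28.7 and 33.9 CPM against 5.03 and 4.58 CPM. In PRMT5i it read 5.16 and 6.3 CPM against 0.886 and 0.771 CPM, and in the combination 7.59 and 6.22 CPM against 1.92 and 2.5 CPM. Replicates 3 and 4 were below both replicates 1 and 2 in each treatment. The drift was -2.48 (SE 0.185, adjusted p = 1.3e-05, n = 8 against 8), and the mean over 8 libraries was 12.9 CPM for replicates 1 and 2 against 2.23 CPM for replicates 3 and 4. EPX lies at chr17:58192737-58205174 (GRCh38).

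PRG2, the major basic protein of eosinophil granules, was present at higher levels. It read 287 and 244 CPM in DMSO replicates 1 and 2 against 58.8 and 59.7 CPM in replicates 3 and 4, and 791 and 825 CPM against 289 and 313 CPM in EZH2i. In PRMT5i the values were 251 and 239 CPM against 105 and 113 CPM, and in the combination 475 and 437 CPM against 288 and 311 CPM. The 2 sets were separate within each treatment. On the log2 scale the fall of PRG2 was largest in DMSO (-2.16) and smallest in the combination (-0.61). Its drift of -1.34 (SE 0.155) had an adjusted p of 0.000396. PRG2 lies at chr11:57386794-57390657, and 43% of its exon bases overlap exons of AP000781.2 on the same strand. The reads of these genes may thus have been divided between them.

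The tryptase gene TPSB2 and the factor GATA2, which acts early in the basophil and mast cell path, followed the same direction. TPSB2 read 5.64 and 9.54 CPM against 3.3 and 2.41 CPM in DMSO, 19.7 and 18.5 against 5.61 and 5.53 CPM in EZH2i, 2.32 and 2.59 against 0.793 and 0.97 CPM in PRMT5i, and 3.79 and 4.21 against 2.44 and 2.39 CPM in the combination. GATA2 read 28.7 and 51.4 CPM against 24.2 and 17.8 CPM in DMSO, 106 and 100 CPM against 55.6 and 56.8 CPM in EZH2i, 25.4 and 26.9 CPM against 16.5 and 15.2 CPM in PRMT5i, and 50.7 and 43.8 CPM against 34.1 and 30.5 CPM in the combination. Neither gene had overlapping values within a treatment, although DMSO replicate 1 lay close to replicate 3 for GATA2. The drift was -1.36 for TPSB2 (SE 0.145, adjusted p = 0.00021) and -0.77 for GATA2 (SE 0.107, adjusted p = 0.00137). TPSAB1, a near-identical copy of TPSB2 whose reads cannot be cleanly separated from it, had a drift of -1.49 at a mean of 1.1 CPM against 0.346 CPM (adjusted p = 0.0134).

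**Figure D1:**
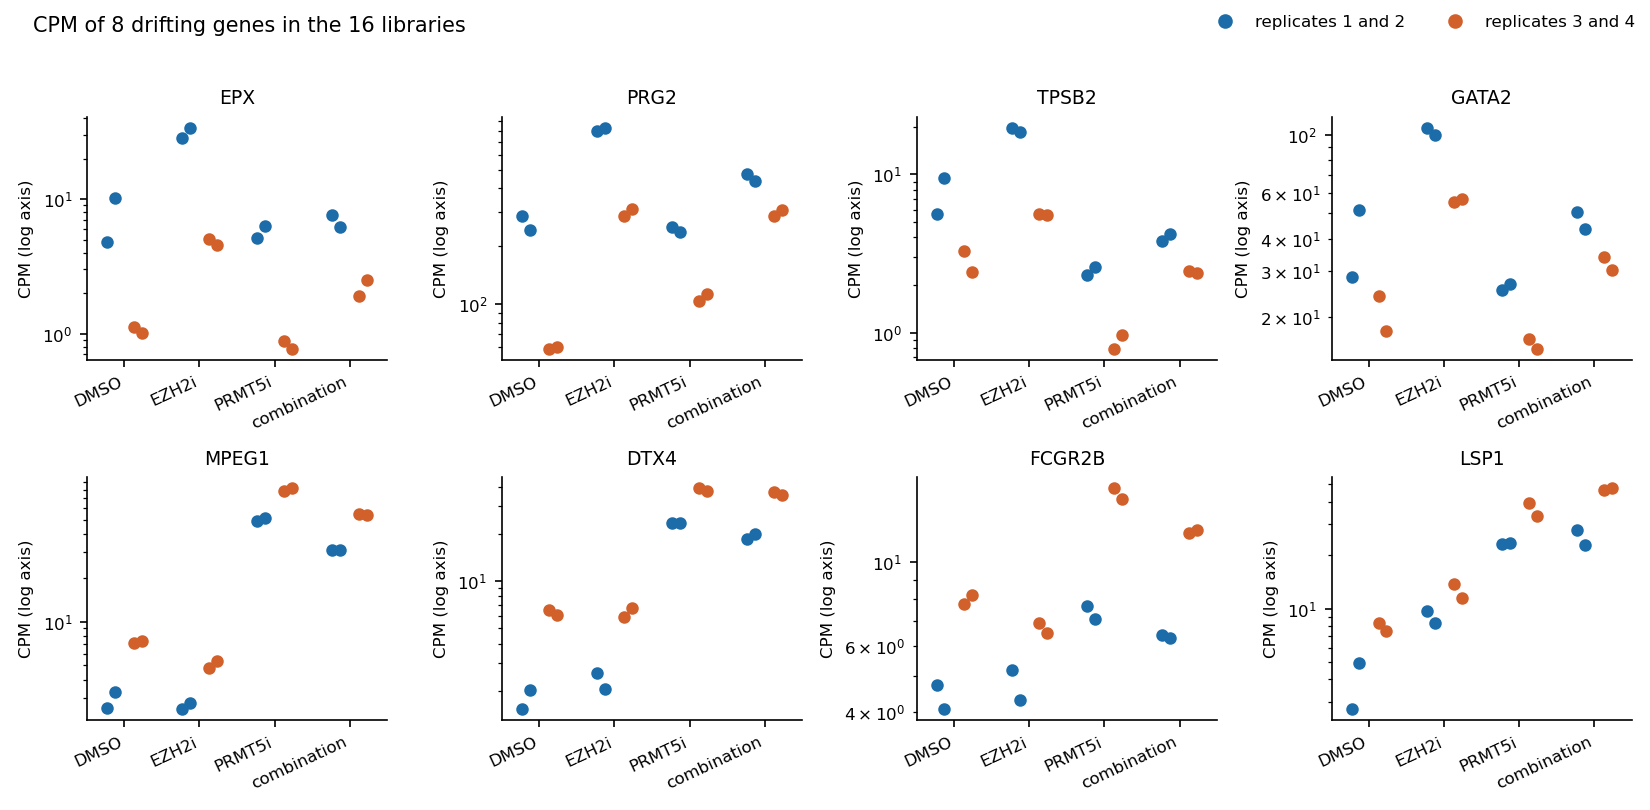
Level of 8 drifting genes in each of the 16 libraries, in CPM on a log axis, by treatment; blue points are replicates 1 and 2 and orange points replicates 3 and 4. EPX, PRG2, TPSB2 and GATA2 in the upper row have the orange points below the blue ones in each treatment, and MPEG1, DTX4, FCGR2B and LSP1 in the lower row have them above.

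Of the list of 19 eosinophil, basophil and mast cell genes, 11 passed the filter on low counts, and 5 of these fell and none rose: EPX, PRG2, TPSB2, TPSAB1 and GATA2. Over all genes tested, 0.86% were called lower and 0.579% higher. The median drift over the 11 was -1.34 against 0.00 over all genes tested, and it was -1.14 in DMSO, -1.43 in EZH2i, -0.73 in PRMT5i and -0.61 in the combination. Summed over the list, replicates 1 and 2 held 493 to 1250 CPM and replicates 3 and 4 held 292 to 596 CPM, mostly from PRG2 and RNASE2. Other members had values in the same direction without passing: IL5RA, the receptor subunit for interleukin-5, had a drift of -1.51 (adjusted p = 0.0637), and PRG3, a homologue of PRG2, had -1.38 (adjusted p = 0.0552). Both are among the 11 and were near the floor. IL5RA reached at most 34 counts (0.682 CPM) in a library and PRG3 at most 16 (0.437 CPM). RNASE2, an eosinophil granule ribonuclease also made by monocytes, read 202 to 311 CPM over the libraries and had -0.23 (adjusted p = 0.176). KIT, the mast cell growth factor receptor, had 0.30, the eotaxin receptor CCR3 had 0.15 and the IgE receptor subunit FCER1A had 0.10, none of which passed. These were low too, with at most 2.19, 1.29 and 1.59 CPM in a library. Mature markers of these cells were near 0 throughout: CLC reached at most 3 counts in a library, CPA3 and SIGLEC8 at most 5, MS4A2 at most 7 and HDC at most 12. The count of members called ranged from 4 to 7 over the alternative settings and left-out libraries.

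The other genes of largest fall held membrane, cytoskeletal and metabolic proteins. FHL1, a LIM-domain protein, had a drift of -0.85 (SE 0.075, adjusted p = 5.46e-05), and the tetraspanin CD9 had -0.83 (SE 0.112). EPS8, which caps and bundles actin, read 10.6 and 8.23 CPM against 5.48 and 7.06 CPM in DMSO, 13.7 and 14.9 against 9.02 and 9.46 CPM in EZH2i, 8.52 and 7.7 against 4.5 and 4.73 CPM in PRMT5i, and 14.2 and 14.3 against 8.55 and 8.61 CPM in the combination. It was lower in replicates 3 and 4 within each treatment, with a drift of -0.69 (SE 0.071, adjusted p = 0.00014). RAB7B, a small GTPase of late endosomes, read 36.7 and 38.9 CPM against 16.4 and 16.8 CPM in DMSO, 99.6 and 99.6 against 53 and 55.3 CPM in EZH2i, 27.8 and 29.2 against 19.4 and 18.5 CPM in PRMT5i, and 56.7 and 49.4 against 41.4 and 44.6 CPM in the combination. Its drift was -0.74, without overlap in any treatment. C1orf186 (-0.98), the glucocorticoid-activating enzyme HSD11B1 (-0.76), the peroxiredoxin-like FAM213A (-0.74) and the clotting factor subunit F13A1 (-0.65) completed the 12 lower genes taken by size.

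Several further genes of the lower set were picked out after their values were seen. The constant segments of the T-cell receptor loci, which early haematopoietic cells can transcribe without rearrangement, were among them: TRDC had a drift of -0.79, TRGC1 -0.69 and TRGC2 -0.54. TRDC read 15.9 and 11.2 CPM against 5.32 and 6.05 CPM in DMSO and 8.15 and 8.63 CPM against 4.82 and 6.41 CPM in the combination. The 2 sets did not overlap in either treatment. Of the TRDC exon bases, 38.8% overlap exons of AC244502.1 on the opposite strand. The TRDC value thus depends on a strand setting that no source used here gives. CEBPE, a C/EBP factor of granulocyte and eosinophil maturation, had a drift of -0.86 (adjusted p = 0.0151), the receptor tyrosine kinase AXL -0.57, and the promyelocytic zinc finger factor ZBTB16 -1.12. Among the 8 T and NK cell markers that passed the filter none passed the test.

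Both MPEG1 and DTX4, a ubiquitin ligase of the Deltex family, were among the largest rises, and they lie tail to tail at chr11:59208510-59212951 and chr11:59171430-59208587 and overlap by under 2% of either span. MPEG1 read 2.55 and 3.3 CPM in DMSO replicates 1 and 2 against 7.15 and 7.34 CPM in replicates 3 and 4, and 2.52 and 2.77 CPM against 4.82 and 5.36 CPM in EZH2i. At the higher levels reached with PRMT5i it read 48.5 and 50.9 CPM against 78 and 81.9 CPM, and in the combination 31 and 30.9 CPM against 54.3 and 54 CPM. The sets were separate in each treatment, and the drift was 0.91 (SE 0.082, adjusted p = 5.46e-05). DTX4 read 1.53 and 2.02 CPM against 6.55 and 6.11 CPM in DMSO, 2.6 and 2.05 against 5.95 and 6.73 CPM in EZH2i, 23.6 and 23.5 against 39.2 and 37.5 CPM in PRMT5i, and 18.6 and 20 against 36.9 and 35.3 CPM in the combination. Its drift of 1.16 (SE 0.129, adjusted p = 0.000315) was the largest rise by the same rule.

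FCGR2B, the inhibitory receptor for the Fc part of IgG, rose by 0.84 (SE 0.077, adjusted p = 6.08e-05). It read 4.72 and 4.08 CPM against 7.73 and 8.19 CPM in DMSO, 5.17 and 4.32 against 6.92 and 6.48 CPM in EZH2i, 7.64 and 7.08 against 15.7 and 14.7 CPM in PRMT5i, and 6.42 and 6.31 against 11.9 and 12.2 CPM in the combination. No values overlapped within a treatment, and FCGR2C is a near-identical copy with which reads may be shared. LSP1, a leukocyte protein that binds actin, read 2.72 and 4.92 CPM against 8.31 and 7.51 CPM in DMSO, 9.73 and 8.25 against 13.8 and 11.6 CPM in EZH2i, 23.1 and 23.4 against 39.2 and 33.2 CPM in PRMT5i, and 27.6 and 22.8 against 46.6 and 47.6 CPM in the combination. It was higher in replicates 3 and 4 within each treatment (drift 0.77, SE 0.109, adjusted p = 0.00156). SLC6A8, the creatine transporter, had a drift of 0.97 (SE 0.154, adjusted p = 0.00367), the second largest rise by the rule. The retinal reductase DHRS3 had a drift of 0.64, and MS4A4A, a tetraspan protein of macrophages, 0.65.

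Of 35 monocyte and macrophage markers, 28 passed the filter on low counts. Against 0.579% of all genes called higher and 0.86% called lower, 5 of these markers rose and none fell. They were MPEG1, CD36, the calprotectin subunit S100A9 (drift 0.74, adjusted p = 0.0189, lost in 4 of 23 alternatives), the matrix proteoglycan VCAN (0.53, adjusted p = 0.0297) and the scavenger receptor MSR1 (0.69, adjusted p = 0.0314). S100A9 was low, at a mean of 1.25 CPM against 2.19 CPM. It read under 1 CPM in each DMSO and EZH2i library, and its pairs overlapped in DMSO. MSR1 read 0.629 to 3.56 CPM over the libraries and VCAN 2.21 to 10.2 CPM. The median over the 28 was 0.08, and their summed level of 1410 to 2310 CPM in replicates 1 and 2 overlapped that of 1490 to 2750 CPM in replicates 3 and 4. Thus most markers of the list did not pass, including the lysozyme gene LYZ (0.16), the integrin ITGAM (0.09), the M-CSF receptor CSF1R (-0.08) and the Fc receptor FCGR1A (-0.24). CD36, a scavenger receptor for lipids, read 21.4 and 20.3 CPM against 34 and 37.7 CPM in PRMT5i and 15.4 and 15.2 CPM against 25.1 and 25.3 CPM in the combination. In DMSO it read 7.5 and 4.27 CPM against 7.31 and 8.62 CPM and in EZH2i 3.72 and 6.44 CPM against 6.08 and 6.88 CPM. The sets were separate with PRMT5i and overlapped without it, and the drift was 0.58 (SE 0.12, adjusted p = 0.0224), a call that was lost in 9 of 23 alternatives. The number of monocyte and macrophage markers called ranged from 1 to 7 over the alternatives, with 1 called when PRMT5i replicate 1, 2 or 4 was left out.

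**Figure D2:**
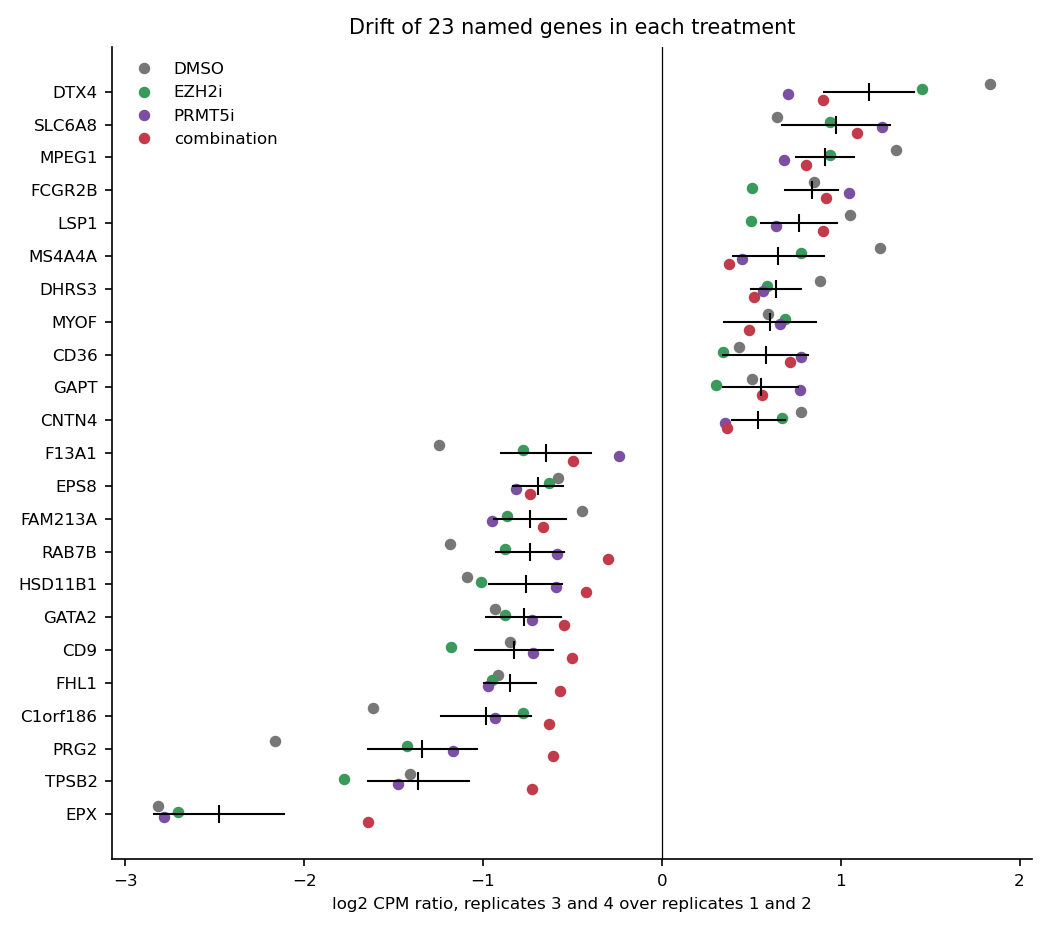
Drift (log2, replicates 3 and 4 minus replicates 1 and 2) of 11 higher and 12 lower protein-coding genes of largest change. Coloured points give the drift in each treatment, the black tick the fit over all 16 libraries and the black line an approximate 95% interval, from the SE and a normal distribution. Points of one gene lie on one side of 0 for each gene drawn, and EPX reaches furthest, with -2.48 over all libraries.

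Of 15 primary granule genes of neutrophil precursors, CST7 fell (drift -0.43) and no other member passed, with the myeloperoxidase gene MPO at 0.00 and a list median of -0.19. The list median was -0.29 in DMSO, -0.44 in EZH2i, -0.09 in PRMT5i and 0.02 in the combination. Both replicates 3 and 4 lay below both replicates 1 and 2 for 11 of the 15 in EZH2i, against 17.4% of all genes, and for 6 in DMSO, against 13.5%. The difference among treatments had an unadjusted p under 0.05 for 5 of the 15. Among 35 genes of hypoxia and glycolysis 3 rose (0.579% of all genes) and none fell (0.86% of all genes). Of the 35, 29 had a positive drift, against 50.2% of all genes, and the median was 0.09. SLC2A3, a glucose transporter, read 189 and 160 CPM against 214 and 229 CPM in DMSO, 214 and 182 against 286 and 304 CPM in EZH2i, 113 and 103 against 123 and 126 CPM in PRMT5i, and 151 and 138 against 199 and 190 CPM in the combination. The sets did not overlap in any treatment, and SLC2A3 rose by 0.39 (SE 0.063, adjusted p = 0.00473). PFKFB4, which sets the level of an activator of glycolysis, rose by 0.37, and EGLN3, a prolyl hydroxylase of hypoxia-inducible factor that it also induces, rose by 1.27 at a low level of 0.21 CPM against 0.526 CPM. The stress-responsive NDRG1 had 0.34 and did not pass (adjusted p = 0.0664).

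All 28 mitosis genes tested had a negative drift, at a median of -0.15, whereas 50.2% of all genes had a positive one, but 2 passed, KIF20A (-0.29) and PRC1 (-0.24), and those calls were lost in 14 and 16 of 23 alternatives. Without DMSO replicate 1 the number called was 6, and without DMSO replicate 2 it was 5. In PRMT5i 26 of the 28 lay below without overlap, against 24.3% of all genes. With the shares of all genes in parentheses, the mitosis counts were 15 in the combination (21.8%), 13 in EZH2i (17.4%) and 12 in DMSO (13.5%). Of 37 DNA replication genes 30 had a negative drift, and the cyclin gene CCNE1 (-0.28) was the member that passed, a call lost in 3 of 23 alternatives. None of the 37 histone genes passed, and 36 had a negative drift at a median of -0.18. By treatment the histone median was -0.26 in DMSO, -0.39 in EZH2i and -0.31 in PRMT5i, and 0.19 in the combination, where 35 of 37 had a positive drift and 15 had both libraries of replicates 3 and 4 above both of replicates 1 and 2, against 20.8% of all genes. None of the 72 cytosolic ribosomal protein genes passed, although 67 had a positive drift at a median of 0.08. In the combination 72 of 72 were positive and 58 lay above without overlap, at a median of 0.17, whereas in DMSO 31 were positive at a median of -0.02.

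In other lists 0 to 2 members passed in a direction, against 0.579% of all genes higher and 0.86% lower. The interferon-inducible GTPases GBP2 (-0.47, adjusted p = 0.00131) and GBP5 (-0.48) fell among 32 interferon-stimulated genes with a median of -0.07. That median joins unlike treatments: it was 0.15 in DMSO, with 27 of 32 positive, -0.03 in EZH2i, -0.31 in PRMT5i and -0.20 in the combination, with 1 of 32 positive in each of PRMT5i and the combination. Replicates 3 and 4 lay below without overlap for 30 of the 32 in PRMT5i, against 24.3% of all genes, and for 20 in the combination, against 21.8%. The difference among treatments had an unadjusted p under 0.05 for 8 of them. Of 17 genes of fatty acid oxidation and PPAR signalling, ANGPTL4 (1.02), a lipase inhibitor, rose, and the receptor PPARG (-0.50) fell. FOS, an immediate early transcription factor, rose by 0.39 (adjusted p = 0.00142), alone of 36 immediate early and MAPK feedback genes. The cathepsin CTSH (-0.40) and the autophagy gene GABARAPL1 (-0.42, lost in 7 of 23 alternatives) fell, and so did the fatty acid desaturase FADS2 (-0.34), the sterol pathway enzyme FDPS (-0.26), the cytokine OSM (-0.43) and the factor NFE2 (-0.38). No member was called in the lists for MHC class I or class II, p53 targets, the unfolded protein response, heat shock, NF-kB, MYC and nucleolar genes, respiratory chain, spliceosome, PRC2 subunits or PRMT partners. In the combination, 14 of 18 heat shock genes and 14 of 22 genes of the unfolded protein response lay below without overlap, against 21.8% of all genes. Both lists had a median of -0.20 there, against 0.05 and 0.08 in DMSO. Of the drug targets, EZH2 had a drift of 0.12 (adjusted p = 0.807) and PRMT5 of -0.05 (adjusted p = 0.858).

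**Figure D3:**
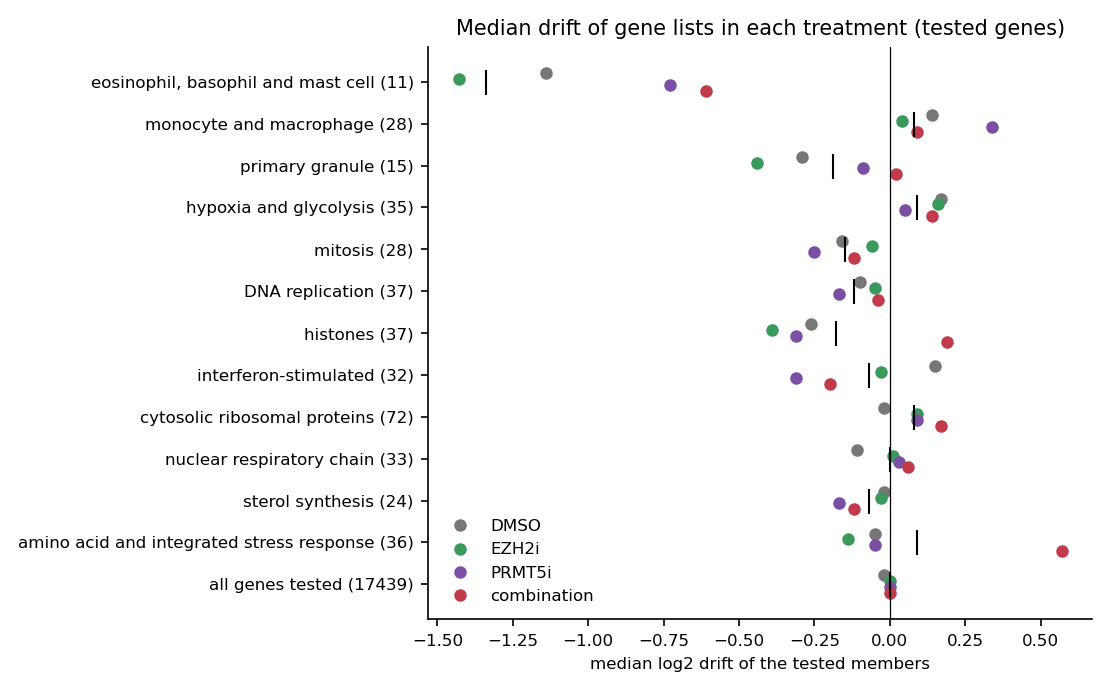
Median drift (log2) of gene lists, with the number of tested genes in parentheses: coloured points for each treatment and a black tick for the fit over all 16 libraries. The eosinophil, basophil and mast cell list lies at -1.34 and below 0 in each treatment, whereas the amino acid and integrated stress list lies near 0 except in the combination, at 0.57.

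The direction of drift was shared by the treatments for most called genes. Of the 251 genes, 249 had the same sign in each of the 4 treatments, as did 20.6% of all genes tested, but the call itself favours genes with a common sign. Replicates 3 and 4 lay above replicates 1 and 2 in each treatment for 70 of the 101 higher genes (0.728% of all genes), and below them for 116 of the 150 lower genes (1.04% of all genes). A reading from separate libraries was had by calling the drift in 3 treatments and taking its sign in the one left out. With PRMT5i left out, 62 of 63 called genes (98.4%) had the same sign in PRMT5i, against 60.5% of all genes. With EZH2i left out it was 91 of 96 (94.8% against 57.3%), with the combination left out 93 of 100 (93% against 54.2%), and with DMSO left out 229 of 266 (86.1% against 56.8%). The sizes were smaller where they had not been used for the call: the median was 0.813 in the calling libraries and 0.564 in PRMT5i, and 0.668 and 0.409 for the combination.

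**Figure D4:**
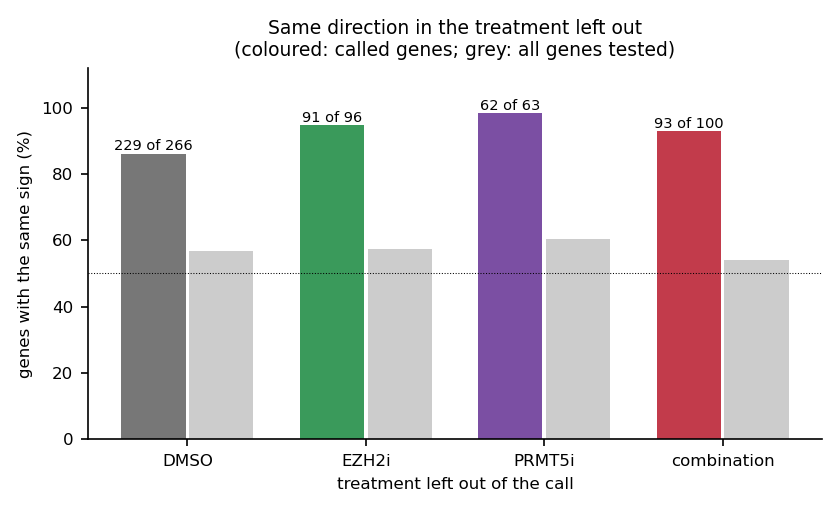
Share of genes whose drift in the treatment left out had the same sign as in the other 12 libraries, in percent from 0. Coloured bars are genes called in those 12 libraries, with their numbers above, grey bars are all 17439 genes tested, and the dotted line marks 50%; called genes reach 86.1 to 98.4% and all genes 54.2 to 60.5%.

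Tested within single treatments, with 2 libraries against 2, few genes passed. There were 10 in DMSO (0.0573%), 3 higher (0.0172%) and 7 lower (0.0401%), and 17 in EZH2i (0.0975%), 6 higher (0.0344%) and 11 lower (0.0631%). PRMT5i had 4 (0.0229%) and the combination 5 (0.0287%). Those in PRMT5i were FCGR2B, higher (0.00573%), and PRG2, EPX and AE000661.37, lower (0.0172%). At an unadjusted p under 0.05 the shares were 6.24% in DMSO, 6.42% in EZH2i, 4.67% in PRMT5i and 4.6% in the combination. The 5 in the combination were all higher: CHAC1, ASNS, STC2, FCGR2B and NLRP12. The drifts of separate treatments were compared over genes. Pearson correlations across the 17439 genes, which are not independent, ran from -0.039 for DMSO and PRMT5i to 0.25 for PRMT5i and the combination. Over the 10122 genes with at least 5 CPM they were 0.513 for PRMT5i and the combination, 0.352 for EZH2i and PRMT5i, 0.139 for DMSO and EZH2i, and -0.32 for DMSO and PRMT5i. The combination had 0.03 with EZH2i and -0.121 with DMSO over these genes. All treatments share 1 estimate of the spread, and the counts moved with the DMSO libraries. Without DMSO replicate 1 the counts were 208, 61, 12 and 39 in DMSO, EZH2i, PRMT5i and the combination, and without DMSO replicate 2 they were 2464, 66, 14 and 36, the single DMSO library left in its pair being assumed to vary like the others.

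A test of whether drift differed among the 4 treatments called 2 genes (0.0115%), PRG2 (adjusted p = 0.0351) and CHAC1 (adjusted p = 0.0291), with 552 genes (3.17%) at an unadjusted p under 0.05. The count was 11 without DMSO replicate 1, 545 without DMSO replicate 2 and 0 without any other single library. For PRG2 the direction was shared and the size was not: the drift was -2.16 in DMSO, -1.43 in EZH2i, -1.17 in PRMT5i and -0.61 in the combination. Averaged over the treatments with PRMT5i, its drift was less negative than without PRMT5i by 0.91 (adjusted p = 0.0441). ENPP2, the secreted enzyme autotaxin that makes lysophosphatidic acid, differed in the same contrast by -0.74 (adjusted p = 0.0441), and these were the genes called for it (0.0115%, 0.00573% in either direction, and 5.64% at an unadjusted p under 0.05). The contrast calls of PRG2 and ENPP2 were lost in 17 and 18 of 23 alternatives, among them the replicate block, the GC corrections and each left-out library other than DMSO replicates 1 and 2, and the GC correction called 2 other genes. ENPP2 read 230 and 252 CPM against 304 and 313 CPM in DMSO and 202 and 186 against 259 and 256 CPM in EZH2i, but 722 and 717 CPM against 510 and 519 CPM in PRMT5i and 631 and 674 against 550 and 563 CPM in the combination. It was thus higher in replicates 3 and 4 without PRMT5i and lower with it, with no overlap in any treatment. The contrast with against without EZH2i called 0 genes with edgeR, 4 with DESeq2, and 356 (2.04%) at an unadjusted p under 0.05 with edgeR.

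Of the protein-coding genes with the smallest p for that difference, CHAC1, ASNS and STC2 belong to the list of the amino acid and integrated stress response. CHAC1, which degrades glutathione, read 24.5 and 35.8 CPM against 27.4 and 24.2 CPM in DMSO, 24.4 and 21.5 against 18.6 and 14 CPM in EZH2i and 1.94 and 2.08 against 1.75 and 1.57 CPM in PRMT5i. In the combination replicates 1 and 2 read 1.31 and 0.76 CPM, and replicates 3 and 4 read 7.21 and 8.85 CPM. The pairs overlapped in DMSO, replicates 3 and 4 were the lower in EZH2i and PRMT5i, and in the combination they were far above. The drift in the combination was 2.94, against -0.22, -0.49 and -0.28 in DMSO, EZH2i and PRMT5i. ASNS, asparagine synthetase, read 38 and 36.6 CPM against 74 and 84.2 CPM in the combination, and 40.2 and 39.7 CPM against 32 and 37.6 CPM in PRMT5i. STC2, a secreted glycoprotein induced by stress, read 1.73 and 1.31 CPM against 4.93 and 4.78 CPM in the combination, and 2.14 and 2.08 CPM against 1.89 and 1.74 CPM in PRMT5i. In the combination both were higher in replicates 3 and 4, with drifts of 1.08 for ASNS and 1.67 for STC2. In DMSO the pairs of both genes overlapped, and in EZH2i they overlapped for ASNS and replicates 3 and 4 were the lower for STC2. The adjusted p of the difference among treatments was 0.0716 for ASNS and 0.111 for STC2. Of the ASNS exon bases, 44.6% overlap exons of AC079781.5 on the same strand.

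The 250 bases before the start sites of these genes are shown because ATF4 and its partners bind composite elements of the kind TGATGNAA in such regions. Sequences are from RefSeq (GRCh38.p14), 5′ to 3′ on the strand of the gene, and capitals mark matches to TGATGNAA on either strand (TTNCATCA where the match is on the other strand).
CHAC1: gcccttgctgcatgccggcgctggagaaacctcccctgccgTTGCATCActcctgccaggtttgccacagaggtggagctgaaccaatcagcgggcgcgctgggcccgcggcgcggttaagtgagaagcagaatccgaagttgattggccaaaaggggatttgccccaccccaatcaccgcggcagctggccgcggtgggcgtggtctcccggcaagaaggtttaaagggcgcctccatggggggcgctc
ASNS: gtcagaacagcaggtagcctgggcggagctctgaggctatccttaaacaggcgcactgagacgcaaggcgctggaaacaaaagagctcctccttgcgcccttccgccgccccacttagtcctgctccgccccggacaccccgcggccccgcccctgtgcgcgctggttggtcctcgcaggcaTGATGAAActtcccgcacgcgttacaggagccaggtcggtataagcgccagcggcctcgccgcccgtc
STC2: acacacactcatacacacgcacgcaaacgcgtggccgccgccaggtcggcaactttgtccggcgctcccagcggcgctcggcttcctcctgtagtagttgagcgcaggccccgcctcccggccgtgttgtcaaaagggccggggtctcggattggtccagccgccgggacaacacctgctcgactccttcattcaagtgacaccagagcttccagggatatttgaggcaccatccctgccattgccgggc
The CHAC1 window (chr15:40953221-40953470, plus strand) holds the match TTGCATCA starting 209 bases before the start site. The ASNS window (chr7:97872409-97872658, minus strand) holds TGATGAAA starting 68 bases before the start site, and the window of another ASNS start site holds none. The STC2 window (chr5:173328415-173328664, minus strand) holds no match. Of 27 genes of the stress list with a window, 6 (22.2%) held a match in at least 1 window: ASNS, ATF3, CEBPG, CHAC1, FGF21 and SLC1A5. Leaving out genes not tested, FGF21 among them, it was 5 of 26 (19.2%). Of the 10348 tested genes with a window 245 (2.37%) did, and 1104 of all 35116 windows (3.14%). A match describes these letters and is not a measured binding site.

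Most genes of the stress list lay on the same side in the combination. The counts given here include CHAC1, ASNS and STC2, which were named for their small p in these same libraries. Over all treatments none of the 36 tested entries of the list passed for drift (35 genes, CBS being listed under 2 identifiers), and the median was 0.09. In the combination the median was 0.57, 35 of 36 drifts were positive against 49.5% of all genes, and for 33 both replicates 3 and 4 lay above both replicates 1 and 2, against 20.8% of all genes. For none did both lie below, against 21.8% of all genes. In DMSO, EZH2i and PRMT5i the medians were -0.05, -0.14 and -0.05, and 13, 7 and 14 of 36 drifts were positive, against 46.6, 49.1 and 50.2% of all genes. Summed over the list, the level was 2730 CPM in both replicates 1 and 2 of the combination, and 3750 and 3920 CPM in its replicates 3 and 4. It was 2720 to 2740 CPM in the 4 PRMT5i libraries. In DMSO it ran from 6580 to 7450 CPM and in EZH2i from 5510 to 6250 CPM. Replicates 1 and 2 of the combination were thus at the level of PRMT5i alone, and replicates 3 and 4 lay between that level and the level without PRMT5i. The difference in drift among treatments had an unadjusted p under 0.05 for 19 of 36 entries, against 3.17% of all genes.

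ATF4, the factor of the programme, read 223 and 226 CPM against 344 and 354 CPM in the combination, and 211 and 209 against 222 and 211 CPM in PRMT5i. PSAT1, an enzyme of serine synthesis, read 69.3 and 71.1 CPM against 144 and 169 CPM in the combination, and 60.9 and 70.2 against 64.5 and 72.1 CPM in PRMT5i. TRIB3, a pseudokinase induced by ATF4, read 42.4 and 41.2 CPM against 64 and 59.7 CPM in the combination, and 50 and 48.6 against 44 and 41 CPM in PRMT5i. The combination pairs were separate for all 3, and the PRMT5i pairs overlapped for ATF4 and PSAT1 and ran the other way for TRIB3.

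**Figure D5:**
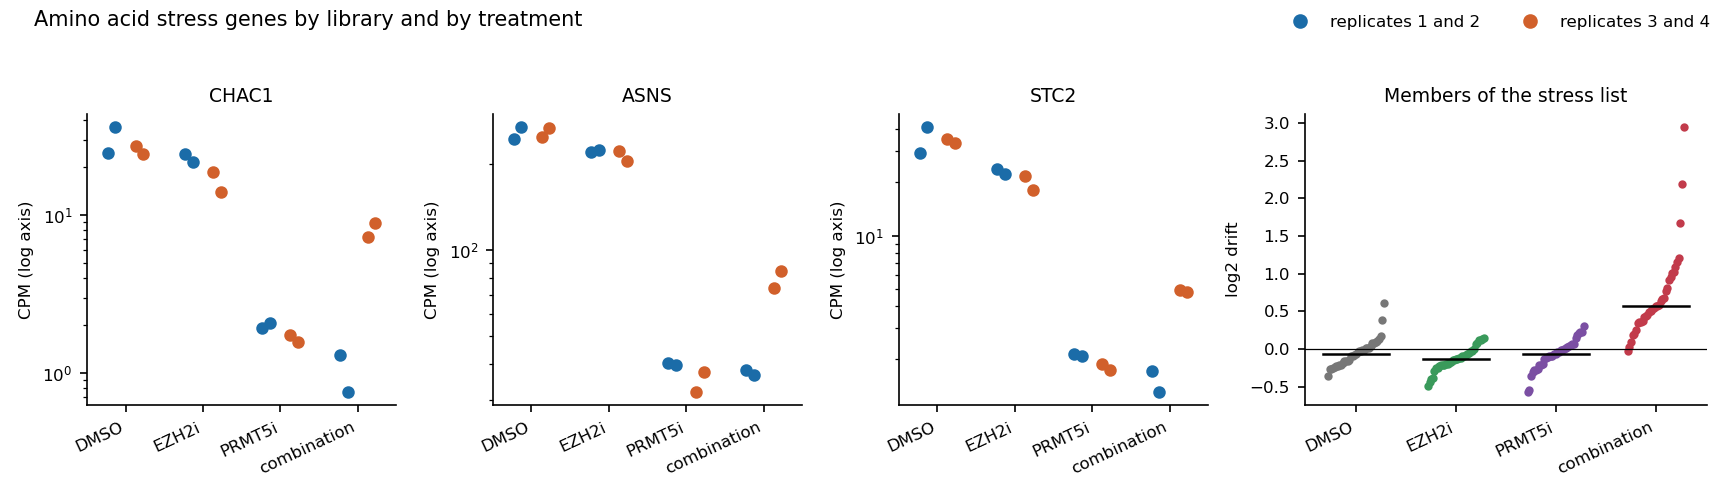
CHAC1, ASNS and STC2 in each library, in CPM on a log axis (blue, replicates 1 and 2; orange, replicates 3 and 4), and the drift (log2) of 35 of the 36 entries of the stress list by treatment, with the median as a line; the second, low entry for CBS is not drawn. Replicates 3 and 4 of the combination stand above replicates 1 and 2 in all 3 gene panels, and the list median is 0.57 there.

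Because the count for a difference among treatments grew when DMSO replicate 1 or 2 was left out, the test of a difference was also run on the 12 libraries of the other treatments, a choice made after seeing the data. Of 17181 genes tested, 4 were called (0.0233%): CHAC1 (adjusted p = 0.0091), STC2 (0.0278), ASNS (0.0281) and ENPP2 (0.0438), with 822 (4.78%) at an unadjusted p under 0.05. Of the stress list, 3 of 36 were called and 27 of 36 had an unadjusted p under 0.05. Within the combination 21 genes were called in this fit, and 6 of them were of the stress list: CHAC1 (2.93), STC2 (1.66), PSAT1 (1.16), ASNS (1.08), the transsulphuration enzyme CBS (0.96) and the mitochondrial folate enzyme ALDH1L2 (0.81). Within EZH2i 37 genes and within PRMT5i 9 genes were called, none of them of the stress list.

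Outside the stress list, GPT2, which makes alanine, had drifts of -0.30, -0.41 and -0.36 in DMSO, EZH2i and PRMT5i and 0.64 in the combination (adjusted p of the difference 0.41). IGLL1, a surrogate light chain component of precursor B cells, read 3.3 and 4.89 CPM against 1.98 and 2.1 CPM in DMSO, 11.6 and 11.1 against 7.89 and 6.22 CPM in EZH2i, and 8.16 and 8.4 against 5.97 and 5.97 CPM in PRMT5i. In the combination it read 14.2 and 12.9 CPM against 19.3 and 18 CPM, so replicates 3 and 4 were the higher there and the lower in the other treatments. The surface glycoprotein CD52 had -0.68 and -0.58 in DMSO and EZH2i and 0.20 and 0.24 in PRMT5i and the combination. For none of these 3 genes did the difference pass at the adjusted threshold.

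Properties of the libraries were compared between the pairs by exact two-sided permutation within treatment. The share of counts on ribosomal protein genes was 10.6% (SD 0.631, n = 8) in replicates 1 and 2 and 11.2% (SD 0.385, n = 8) in replicates 3 and 4 (exact permutation p = 0.0154, 0.154 after adjustment over 10 properties). The share on histone genes was 0.74% and 0.642% (exact permutation p = 0.0494, adjusted 0.247). Library size, scaling factor, mitochondrial share, genes detected and the GC and length slopes did not differ at an exact p of 0.05, and no property passed after adjustment. Within DMSO and EZH2i the ribosomal shares of the pairs overlapped, and within PRMT5i and the combination they were separate. The part of the ribosomal share in the gene results was not tested. With the replicate pair in the model, the number of genes called against DMSO was 1482 for EZH2i (8.5%), 5993 for PRMT5i (34.4%) and 6235 for the combination (35.8%), and without it 1239 (7.1%), 5839 (33.5%) and 6025 (34.5%).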

How the data were processed

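RNA from 16 Molm13 samples was sequenced as paired-end Illumina libraries; the sources do not say whether replicates were separate cultures. The authors deposited 1 table of expected counts per gene, made with STAR 2.5.3 and RSEM on GRCh38.p7 per the submitters' processing notes; for the RSEM version, annotation and strand setting, no source used here gives a statement, and 12% of values are not whole. Expected counts divide reads shared between genes, which affects overlapping genes and near-identical copies.

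From that table, expected counts were rounded and genes filtered with filterByExpr over the 8 treatment and pair cells, scaled by TMM and tested with edgeR 4.0.16 quasi-likelihood tests in R 4.3.3, with Benjamini-Hochberg adjustment over the 17439 genes and a threshold of 0.05. Drift over all treatments was fitted with treatment as covariate; within-treatment drifts and their differences came from 8 cell means. Each SE is the absolute log2 change divided by the square root of the F statistic of its test. The held-out reading kept the filter and scaling of all 16 libraries. DESeq2 1.42.0, other filters and scalings, a replicate number block, a GC correction and leaving out each library were alternatives. The tests of drift over all treatments and of a difference among treatments were checked on simulated counts with known changes. The calls of the other tests were not checked in this way. Drift was recovered for 100 of 100 genes at a log2 change of 1 and for 76 of 100 at 0.5. A difference, set in the combination, was recovered for 95 of 100 genes at a log2 change of 2 and for 16 of 100 at 1. The test of a difference falsely called 8 genes there, whereas it called 2 genes in the measured data.

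Replicates of a treatment differed by 8.12 to 265 times the sampling noise (chi-square per degree of freedom), so no library was counted as a duplicate. Library depth of 31.1 to 52.9 M expected counts makes counting error small except for genes under about 1 CPM. Gene positions and types are from GENCODE v29. Named genes were the 12 higher and 12 lower protein-coding drift genes of largest change with at least 5 CPM, the 8 of smallest p for the difference and 4 for each contrast, up to 2 members per list, EZH2, PRMT5, MPEG1, EPS8 and PRG2; list members that did not pass are named as examples, and 1 gene of the first set is not reported here. The members and lists were chosen with earlier results of these data known.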

Additional observations from a re-analysis of the deposited data

Results flagged for a closer look

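Groups of 4 libraries were screened, 132 for named genes and 40 for library properties. In 4 of them 1 library lay far from the others of its treatment, and chance flags about 1 group in 20. All 4 were DMSO replicate 1. SLC6A8, the creatine transporter, read 1.92 CPM there and 4.55 to 5.06 CPM in the other DMSO libraries, and MYOF, a membrane repair protein, 1.36 CPM against 3.27 to 3.59 CPM. EZH2 read 21.6 CPM against 42.5 to 43.8 CPM, and the slope of log2 level on gene length was -0.1 per doubling against -0.052 to -0.044. SLC6A8 and MYOF rose over all treatments (drift 0.97 and 0.60), and the call of MYOF was lost in 11 of 23 alternatives.

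The size of the drift differed among the treatments for PRG2 (adjusted p = 0.0351) and CHAC1 (adjusted p = 0.0291) by the test of the difference. Averaged over the treatments with PRMT5i, the drift minus that without was 0.91 for PRG2 and -0.74 for ENPP2 on the log2 scale.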

How the results depend on the processing

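No named gene result changed direction under an alternative, whereas the pair differences in scaling factor, coding mitochondrial share, share of the 100 most abundant genes and GC and length slopes, none of which passed, changed sign when single libraries were left out. The drift over all treatments gave 251 genes, and 484 with DESeq2 (all 251 among them), 454 without a filter on low counts, 541 with a GC correction and 441 with a GC correction and replicate block. The test of a difference among treatments gave 2 genes, and 44 with DESeq2, 1 with total counts, 325 without a filter, 7 with a GC correction and 4 on the 12 libraries without DMSO, a choice made after seeing the data. Within DMSO the 10 genes became 83 with DESeq2, 220 without a filter and 49 with a GC correction, and within EZH2i the 17 became 70, 140 and 39. Within PRMT5i the 4 became 31, 141 and 11. Within the combination the 5 became 52, 122 and 37, 1 with total counts and 9 at a mean of at least 1 CPM. The contrast with against without PRMT5i gave 2, and 42 with DESeq2, 1 with total counts and 161 without a filter. The contrast for EZH2i gave 0, and 4 with DESeq2, 67 without a filter and 2 with a GC correction. The held-out share of same sign, pooled over treatments, was 90.5%, and 82.7% with DESeq2, 73.9% without a filter and 79.8% with a GC correction. The cause was not tested.

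Leaving out 1 library at a time gave 148 to 467 genes for the drift, 0 to 545 for the difference among treatments, 4 to 2464 within DMSO, 2 to 66 within EZH2i, 0 to 14 within PRMT5i and 0 to 39 within the combination. It gave 0 to 175 for the PRMT5i contrast, 0 to 408 for the EZH2i contrast and 70.7 to 93.7% for the held-out share. The highest counts came without DMSO replicate 1 or 2.

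Replicate numbers were not taken to pair the libraries: 8 of 24 same-numbered pairs had a correlation of deviations over 0.1 (range -0.249 to 0.195), and 8 of 16 libraries correlated best with their own number, out of 4 numbers. The mean correlation was 0.032 for the same number and 0.054 for the other number of the same replicate pair. For numbers of the other replicate pair it was -0.043. Whether 8 of 16 exceeds chance was not tested. With the replicate number as a block the drift gave 218 genes, the difference among treatments 0, EZH2i 8, the combination 2, and the PRMT5i contrast 0. With a GC correction and the block the difference among treatments gave 4, DMSO 27, the combination 12, the PRMT5i contrast 0 and the held-out share 82.3%.

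Of the genes named, the call of CHAC1 among treatments was lost in 16 of 23 alternatives (adjusted p 2.88e-31 to 0.36) and that of PRG2 in 17 (1.67e-16 to 0.421), and the PRMT5i contrast of PRG2 in 17 and of ENPP2 in 18. The drift calls of the named genes of largest change held in all 23 except for MYOF, lost in 11, CD36 in 9, and MS4A4A and GAPT in 1 each. With 2 libraries in each treatment and pair, the precision of a difference between drifts is low, and genes under about 1 CPM add counting error.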
